A study of Macaca fascicularis with 2 samples.

Results

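The genes described here encode small calcium-binding S100 proteins, annexins, galectins, the intermediate filament protein vimentin and the nuclear lamins A and C, which T cells switch on as they leave the naïve state. They were chosen by symbol, and of the 10 listed (*S100A4*, *S100A6*, *S100A10*, *S100A11*, *ANXA1*, *ANXA2*, *LGALS1*, *LGALS3*, *VIM* and *LMNA*) 8 had a row among the 29324 genes of the table. *S100A11* and *LGALS1* were not analysed here. The 8 genes held 163332 unique molecular identifiers (UMIs, counts of single captured RNA molecules), or 5156 per 1000000 gene UMIs (CPM), and 95.5% of cells carried at least 1.

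The cells were CD4+CD8+ double-positive (DP) T cells from the blood of 1 untreated cynomolgus monkey, 10 years old, enriched with magnetic beads and labelled with DNA-tagged antibodies to CD4 and CD8α. 5′ single-cell libraries were made from them, 1 for gene UMIs and 1 for tag UMIs, and all 8953 barcodes carried genes and both tags. After filtering, 8830 cells with 31677119 gene UMIs remained, at a median of 3145 UMIs and 1127 genes per cell. With 1 animal and no replicate library there was no test, and every interval is a 95% interval that covers counting error only.

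Cells were grouped by their own RNA. The naïve gate held the 5082 cells (57.6%) with at least 3 UMIs of *CCR7*, *LEF1* and *TCF7* together and none of the cytotoxic genes *GZMA*, *GZMB*, *GZMK* and *NKG7*. The receptor gates held 263 *CCR6*+, 149 *CCR4*+ and 327 *CXCR5*+ cells with at least 1 UMI, homing receptors that mark Th17, Th2 and follicular helper cells respectively. The *FOXP3*+ gate, for the transcription factor of regulatory T cells, held 384 cells, and the *GZMB*+ gate, for the cytotoxic granule protease granzyme B, held 1437 cells with at least 3 UMIs. The other 1810 cells met no gate. The gates overlapped, and the naïve gate shared 87 cells with *CCR6*+, 62 with *CCR4*+, 129 with *CXCR5*+ and 228 with *FOXP3*+, but 0 with *GZMB*+. The *CCR6*+ and *CCR4*+ gates shared 36 cells, so their levels are not independent, and *CXCR5*+ and *FOXP3*+ shared 24. A cell shared by the gates of a comparison counts on both sides of its ratio.

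The gates were checked for T-cell RNA and for other blood cells. The summed level of *CD3D*, *CD3E*, *CD3G* and *TRAC* lay between 2340 CPM in the *CXCR5*+ gate and 3892 CPM in the *GZMB*+ gate. All 5 B-lineage markers were detected in every gate, and their sum was 1874 CPM in the *CXCR5*+ gate against 84.9 CPM in the naïve gate and 5780 CPM in 114 B-marker cells, which held at least 3 B-lineage UMIs and at most 1 T-cell UMI. B cells also carry *CXCR5*, so the *CXCR5*+ values below include B-cell RNA, and values for T cells only are given in a paragraph of their own. The B-lineage sum was also raised in the *CCR6*+ gate, at 257 CPM. With T cells only, *S100A4* in that gate was at 3284 CPM (3188 to 3383), against 3083 CPM (2994 to 3174) in the whole gate. Platelet markers were at 0 in every gate. The 7 monocyte markers with a row summed to between 2.47 CPM (*CCR4*+, with 6 of them at 0) and 109 CPM (*GZMB*+, with none at 0) in the named gates, and 20 cells with at least 3 monocyte UMIs and at most 1 T-cell UMI had a sum of the 8 genes of 21457 CPM. Cells outside all gates held 4498 erythroid UMIs and 173 CPM of monocyte RNA and are therefore a mixed remainder. The 5 NK-cell markers summed to 294 CPM in the *GZMB*+ gate and 18.3 CPM in the naïve gate, and the part of NK cells in the *GZMB*+ values was not tested.

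S100 proteins change the activity of cytoskeletal and membrane proteins when calcium rises, and S100A10 pairs with annexin A2 at the plasma membrane. Annexins bind phospholipid in a calcium-dependent manner, galectins bind β-galactoside sugars, vimentin forms filaments in the cytoplasm, and lamins A and C form the meshwork under the nuclear envelope. In T cells these genes are known as part of the memory and effector programme, together with adhesion receptors and actin-binding proteins, whereas naïve T cells are small and carry less of them.

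All 8 genes were higher in the *CCR6*+, *CCR4*+ and *GZMB*+ gates than in the naïve gate, each by at least 2-fold. The sum of the 8 genes was 2124 CPM in the naïve gate, 4025 CPM in *FOXP3*+, 5198 CPM in *CXCR5*+, 9379 CPM in *CCR4*+, 9928 CPM in *CCR6*+ and 12943 CPM in *GZMB*+ cells. Of all genes with at least 50 UMIs over both gates, 8.18% were 2-fold or more higher in *CCR6*+, 7.39% in *CCR4*+ and 13% in *GZMB*+ cells. In the *CXCR5*+ gate 5 of 8 passed 2-fold (*S100A4*, *S100A6*, *S100A10*, *LGALS3* and *LMNA*) against 8.1% of all genes. In the *FOXP3*+ gate 4 of 8 passed (*S100A4*, *S100A10*, *LGALS3* and *LMNA*) against 2.76%. The median log2 ratio of the 8 genes to naïve was 2.13 in *CCR6*+, 2.21 in *CCR4*+, 1.44 in *CXCR5*+, 0.97 in *FOXP3*+ and 1.96 in *GZMB*+ cells, where the median over all genes tested was 0.06, 0.07, 0.08, -0.03 and 0.17.

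**Figure D1:**
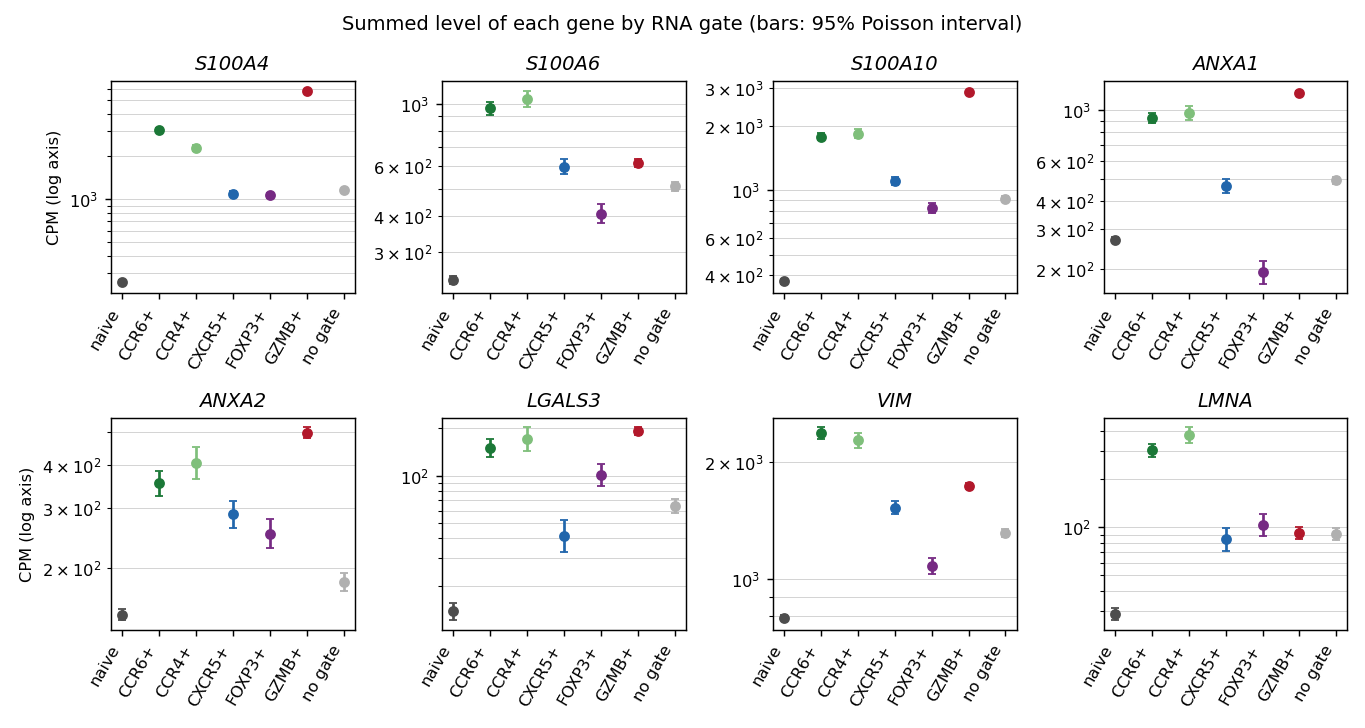
Summed level of each gene in CPM (log axis, a separate scale for each gene) in the 6 RNA gates and in cells of no gate, with 95% Poisson intervals as bars. The naïve gate is lowest for 7 genes, while *ANXA1* is lowest in *FOXP3*+ cells, and *S100A6*, *VIM* and *LMNA* have their highest points in the *CCR6*+ or *CCR4*+ gate rather than in *GZMB*+.

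Among the S100 genes, *S100A4*, whose protein binds non-muscle myosin and is a long-used marker of memory T cells, spanned the widest range. It was at 261 CPM (253 to 268) in the naïve gate, 1060.0 CPM in *FOXP3*+, 1095 CPM in *CXCR5*+, 1149.7 CPM in cells of no gate, 2297 CPM in *CCR4*+, 3083 CPM in *CCR6*+ and 5748 CPM (5689 to 5808) in *GZMB*+ cells. The *CXCR5*+ interval overlapped those of *FOXP3*+ and no-gate cells, though not that of *FOXP3*+ with T cells only, and every other step in this order was larger than counting error. *GZMB*+ cells stood 22.1-fold above naïve (log2 4.46, 4.42 to 4.51) and *CCR6*+ cells 11.8-fold (log2 3.56). The naïve level, and so the ratio, depended on the gate: it was 148 CPM in naïve-gate cells without a receptor or *FOXP3* UMI, and the log2 ratios were 5.33 and 4.71 with cells of 1 gate only and 6.07 and 5.22 where gates were set on thinned cells. *S100A4* made up 12.3% of the UMIs of the 8 genes in the naïve gate, 31.1% in *CCR6*+ and 44.4% in *GZMB*+ cells.

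*S100A10*, the partner of annexin A2, followed a like order at smaller ratios. Its level was 374 CPM in naïve, 826 CPM in *FOXP3*+, 912 CPM in no-gate, 1103 CPM in *CXCR5*+, 1778 CPM in *CCR6*+, 1838 CPM in *CCR4*+ and 2874 CPM in *GZMB*+ cells, with only the *CCR6*+ and *CCR4*+ intervals overlapping. The ratio to naïve was 7.68-fold in *GZMB*+ (log2 2.94, 2.90 to 2.98) and 4.75-fold in *CCR6*+ cells (log2 2.25, 2.18 to 2.31).

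*S100A6*, known as calcyclin, departed from both. It was highest in *CCR4*+ (1038 CPM) and *CCR6*+ cells (962 CPM), whose intervals overlapped. It was at 615 CPM in *GZMB*+, 598 CPM in *CXCR5*+, 511 CPM in no-gate, 408 CPM in *FOXP3*+ and 238 CPM in naïve cells. *GZMB*+ cells, the highest for the other S100 genes, carried *S100A6* at a level whose interval overlapped that of the whole *CXCR5*+ gate, though not that of its T cells alone (443 CPM), and 0.639 times the level of *CCR6*+ cells (log2 -0.65, -0.73 to -0.56).

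*ANXA1* encodes annexin A1, a mediator that limits inflammation and is found in many leukocytes. It was at 269.6 CPM (262 to 278) in naïve, 464 CPM in *CXCR5*+, 490.5 CPM in no-gate, 923 CPM in *CCR6*+, 976 CPM in *CCR4*+ and 1192 CPM in *GZMB*+ cells, with overlapping intervals between *CXCR5*+ and no-gate and between *CCR6*+ and *CCR4*+. In *FOXP3*+ cells it was at 193 CPM (172 to 216), below naïve (log2 -0.48, -0.65 to -0.31), and it was the only one of the 8 genes below its naïve level in any gate. The *FOXP3*+ cells that also met the naïve gate held 120.3 CPM (99.3 to 144), against 244 CPM in naïve-gate cells with no *CCR6*, *CCR4*, *CXCR5* or *FOXP3* UMI. The *FOXP3*+ cells outside the naïve gate held 304 CPM, and their ratio to naïve included 0 (log2 0.17, -0.04 to 0.38). With cells of 1 gate only, the *FOXP3*+ ratio to naïve was above 0 (log2 0.14).

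*ANXA2*, which encodes the annexin that joins S100A10 at the membrane, had narrower ratios. Its level was 146 CPM in naïve, 182 CPM in no-gate, 252 CPM in *FOXP3*+, 287 CPM in *CXCR5*+, 354 CPM in *CCR6*+, 406 CPM in *CCR4*+ and 499 CPM (481 to 517) in *GZMB*+ cells. The *CCR6*+ and *CCR4*+ intervals overlapped, as did those of *FOXP3*+ and *CXCR5*+. *ANXA2* was the member with the smallest ratio in *CCR6*+ cells (2.43-fold, log2 1.28, 1.14 to 1.42).

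*LGALS3*, encoding galectin-3, a lectin of the cytoplasm, nucleus and cell surface, was sparse in naïve cells. It had 238 UMIs over the 5082 naïve-gate cells (13.7 CPM), and 108 UMIs (7.15 CPM) over the 4624 of them without a receptor or *FOXP3* UMI. It reached 41.6 CPM in *CXCR5*+, 64.5 CPM in no-gate, 101 CPM in *FOXP3*+, 149.8 CPM in *CCR6*+, 172 CPM in *CCR4*+ and 192 CPM in *GZMB*+ cells, with overlapping intervals between neighbours of the last 3. Its 7.36-fold ratio in *FOXP3*+ cells (log2 2.88, 2.58 to 3.18) was the largest of the 8 genes in that gate, while *S100A4* stood at 4.07-fold. With T cells only, *LGALS3* in *FOXP3*+ cells was at 82.1 CPM (68.1 to 98.1, log2 2.62).

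*VIM*, encoding vimentin, had the smallest ratio of the 8 genes in *CCR4*+ cells after *ANXA2*. It was at 794 CPM in naïve, 1080.2 CPM in *FOXP3*+, 1309 CPM in no-gate, 1525 CPM in *CXCR5*+, 1731 CPM in *GZMB*+, 2273 CPM in *CCR4*+ and 2373 CPM in *CCR6*+ cells. The intervals of *CCR4*+ and *CCR6*+ overlapped, and both lay above *GZMB*+. In *GZMB*+ cells *VIM* stood 2.18-fold above naïve (log2 1.12, 1.09 to 1.16), the smallest ratio of the 8 genes there.

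*LMNA*, the gene of lamins A and C, was highest in the *CCR4*+ and *CCR6*+ gates. It was at 379 CPM (338 to 424) in *CCR4*+ and 306 CPM (278 to 335) in *CCR6*+ cells, against 104 CPM in *FOXP3*+, 92.3 CPM in *GZMB*+, 90.7 CPM in no-gate, 84.2 CPM in *CXCR5*+ and 28.5 CPM in naïve cells. The levels from *FOXP3*+ down to *CXCR5*+ overlapped in their intervals, but *CXCR5*+ was apart and lower with T cells only (61.2 CPM, 46.9 to 78.5). *CCR4*+ cells stood 13.3-fold above naïve (log2 3.73, 3.52 to 3.94), and *GZMB*+ cells held 0.302 times the level of *CCR6*+ cells (log2 -1.73, -1.91 to -1.55).

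The direct comparison of *GZMB*+ with *CCR6*+ cells divided the genes by direction. *S100A4* (log2 0.90), *S100A10* (0.69), *ANXA2* (0.50), *ANXA1* (0.37) and *LGALS3* (0.35) were higher in *GZMB*+ cells, and *S100A6* (-0.65), *VIM* (-0.46) and *LMNA* (-1.73) were lower, each with an interval that excluded 0. None was 2-fold higher (6.63% of all genes were) and only *LMNA* was 2-fold lower (3.66% of all genes). The gates shared 12 cells.

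**Figure D2:**
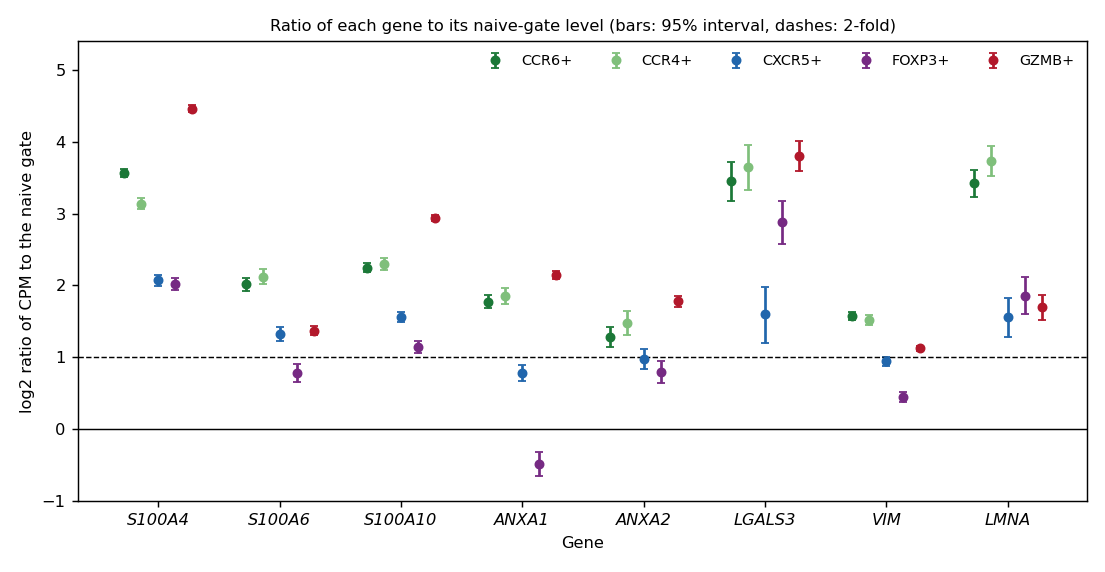
Log2 ratio of the CPM of each gene in 5 RNA gates to its CPM in the naïve gate, with 95% intervals for counting error, a solid line at 0 and dashes at 2-fold. *S100A4* reaches 4.46 in *GZMB*+ cells, *LMNA* is higher in *CCR6*+ and *CCR4*+ (3.42 and 3.73) than in *GZMB*+ (1.69), and the *FOXP3*+ point of *ANXA1* is the only one under 0.

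The receptor-positive cells inside the naïve gate were compared with the 4624 naïve-gate cells that had no receptor or *FOXP3* UMI. All 8 genes were 2-fold or more higher in the 87 *CCR6*+ cells (8.34% of all genes) and in the 62 *CCR4*+ cells (10% of all genes), although these cells carried naïve RNA and no cytotoxic UMI. The sum of the 8 genes was 7851 CPM in the *CCR6*+ and 7349 CPM in the *CCR4*+ cells inside the gate, against 1754 CPM without a receptor. In the 129 *CXCR5*+ cells inside the gate 6 of 8 passed 2-fold (5.68% of all genes). In the 228 *FOXP3*+ cells inside the gate 4 of 8 passed (2.36%), and *ANXA1* was 2-fold lower (log2 -1.02, -1.30 to -0.75, with 5.56% of all genes that low). Cells with a receptor UMI were deeper, with a median of 5807 UMIs in *CCR6*+ cells inside the gate against 2967 in those without a receptor, and the part of depth in these ratios was not tested.

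*FOXP3*+ cells outside the naïve gate were nearer to the helper-type gates. In these 156 cells 6 of 8 genes stood 2-fold or more above the whole naïve gate (5.51% of all genes), all but *ANXA1* and *VIM*. Their *S100A4* level was 1936 CPM (1829 to 2048) against 484 CPM (441 to 531) in the 228 *FOXP3*+ cells inside the gate, and their *LGALS3* level 194 CPM against 39.8 CPM. These values were not limited to T cells. *FOXP3*+ cells with a *CCR4* UMI numbered 13, too few for a gate of their own, and held 1688 CPM of *S100A4* and 321 CPM of *LMNA* (211 to 467).

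The *CXCR5*+ gate lost 117 of 327 cells when only cells with at least 2 T-cell UMIs and at most 1 B-lineage and 1 monocyte UMI were kept, and its B-lineage level was then 20.7 CPM. In the 210 cells that stayed, the sum of the 8 genes was 4862 CPM (4727 to 5000), and the thinned median stayed at 8 UMIs. *S100A4* was at 1178 CPM (1112 to 1247), *S100A10* at 1177 CPM and *ANXA2* at 325 CPM, all higher than in the whole gate. *S100A6* was at 443 CPM (403 to 486), *ANXA1* at 398 CPM, *VIM* at 1236 CPM and *LMNA* at 61.2 CPM (46.9 to 78.5), all lower, and *LGALS3* was at 43.4 CPM. Again 5 of 8 genes passed 2-fold, with *ANXA2* (log2 1.20) in place of *S100A6* (0.94).

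The place of the *CXCR5*+ gate in the order changed for several genes when every gate was held to the same T-cell rule. *S100A4* in *CXCR5*+ cells then lay above *FOXP3*+ cells (995 CPM, 945 to 1047), with intervals apart. *S100A6* was lower than in *GZMB*+ cells (578 CPM, 558 to 598). *LMNA* was lower than in *FOXP3*+ (102 CPM, 86.8 to 120.2), *GZMB*+ (94.1 CPM) and no-gate cells (90.9 CPM). *ANXA1* was lower than in no-gate cells (495 CPM) and *ANXA2* higher than in *FOXP3*+ cells (233 CPM), again with intervals apart. Inside the naïve gate, the 116 *CXCR5*+ cells that met the rule held 4038 CPM of the 8 genes, against 1727 CPM in the 4467 without a receptor or *FOXP3* UMI.

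Cells were next thinned to 2200 UMIs each, which left out 754 shallower cells and kept 8076. The median thinned cell held 3 UMIs of the 8 genes in the naïve gate (10th to 90th percentile 1 to 8), 4 in *FOXP3*+ (0 to 20), 8 in *CXCR5*+ (2 to 21), 16 in *CCR4*+ (4.7 to 45.3), 19 in *CCR6*+ (7 to 46) and 29 in *GZMB*+ (15 to 46). The *GZMB*+ and naïve distributions hardly met, since 1.13% of naïve cells reached the *GZMB*+ median. Of naïve cells, 2.66% reached the *CCR6*+ median, 3.63% the *CCR4*+ median, 10.4% the *CXCR5*+ median and 37.7% the *FOXP3*+ median. Of the 370 *FOXP3*+ cells, 48 held none of the 8 genes, against 8.93% of naïve and 0.0717% (1 of 1394) of *GZMB*+ cells.

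**Figure D3:**
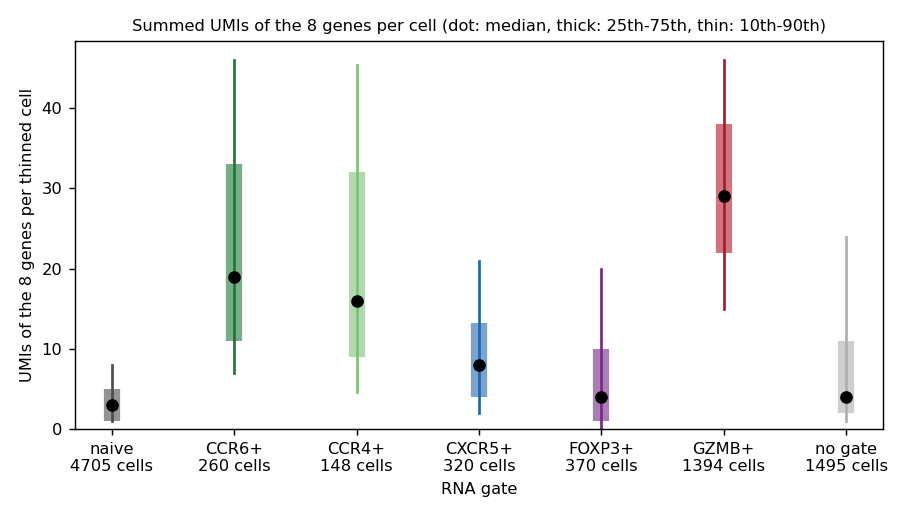
UMIs of the 8 genes together per thinned cell (2200 UMIs each) in each RNA gate, with the median as a dot, the 25th to 75th percentile as a thick bar and the 10th to 90th as a thin bar. The *GZMB*+ 10th percentile (15) lies above the naïve 90th percentile (8), whereas *FOXP3*+ and *CXCR5*+ overlap naïve widely.

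The share of thinned cells with at least 1 UMI was read beside B-marker cells (112 thinned), although no cell type here is known to lack all of these genes. *S100A4* was detected in 9.03% of naïve (8.23 to 9.89), 33.5% of *FOXP3*+, 46.3% of *CXCR5*+ (42.2% with T cells only), 71.6% of *CCR4*+, 86.9% of *CCR6*+ and 99.1% of *GZMB*+ cells, and in 37.5% of B-marker cells. The naïve share was below that of B-marker cells (28.5 to 47.1). The *FOXP3*+ share (28.7 to 38.6) and the *CXCR5*+ share of T cells only overlapped it in their intervals. B-marker cells themselves held 571 CPM of *S100A4*, so this comparison cannot tell whether cells of these gates express it. Without thinning 11.1% of naïve cells (median 3029.5 UMIs) carried *S100A4*. *LGALS3* was found in 1.66% of naïve, 33.0% of *GZMB*+ and 28.4% of *CCR4*+ cells against 0.893% (1 of 112) of B-marker cells, whose unthinned median was 4542 UMIs and whose interval (0.0226 to 4.87) takes in the naïve share. *LMNA* was found in 2.59% of naïve, 14.8% of *GZMB*+, 31.9% of *CCR6*+ and 37.8% of *CCR4*+ cells against 11.6% of B-marker cells, and the interval of the latter (6.33 to 19.0) takes in the *GZMB*+ share. *ANXA1* was found in 17.8% of *FOXP3*+ (14.1 to 22.1) and 29.2% of naïve cells, while B-marker cells showed it in 50% of cells.

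In thinned cells without a cytotoxic UMI, every one of the 8 genes was lower at each further UMI of *CCR7*, *LEF1* and *TCF7* together, although several neighbouring steps beyond 2 UMIs overlapped. *S100A4* was at 1830 CPM (1757 to 1904) in the 598 cells with 0 such UMIs, 833 CPM at 1, 343 CPM at 2, 133 CPM at 3, 122 CPM at 4 and 45.6 CPM (38.6 to 53.6) in the 1494 cells with 5 or more. *LMNA* went from 199.9 CPM to 5.17 CPM and *LGALS3* from 142 CPM to 2.74 CPM between the same ends. *ANXA2* and *VIM* had the shallowest slopes, from 268 to 118 CPM and from 1818 to 644 CPM. Cells at 2 such UMIs held 343 CPM of *S100A4* (321 to 366) and those at 3 held 133 CPM (119 to 148). The steps count UMIs after thinning, whereas the naïve gate, which starts at 3 UMIs, was set before it. Part of the naïve-gate cells therefore lies at steps below 3, and these steps do not mark the edge of the gate. These steps were not limited to T cells. B-marker cells held 4746 CPM of the 8 genes and monocyte-marker cells 21457 CPM, and the part of such cells in the steps was not tested.

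Along *GZMB* the genes differed. *S100A4* was at 492 CPM in cells with 0 *GZMB* UMIs, 3042 CPM at 1 to 2, 5738 CPM at 3 to 9 and 6713 CPM at 10 or more, and *S100A10* at 502, 1694, 2850 and 3315 CPM. Both were still higher at the last step. *VIM* was at 1739 CPM (1668 to 1812) at 3 to 9 and 1701 CPM (1638 to 1767) at 10 or more, and *LMNA* at 84.2 and 84.1 CPM, so neither could be told to differ between the last steps. The thinned cells with 0 *GZMB* UMIs include the naïve gate.

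**Figure D4:**
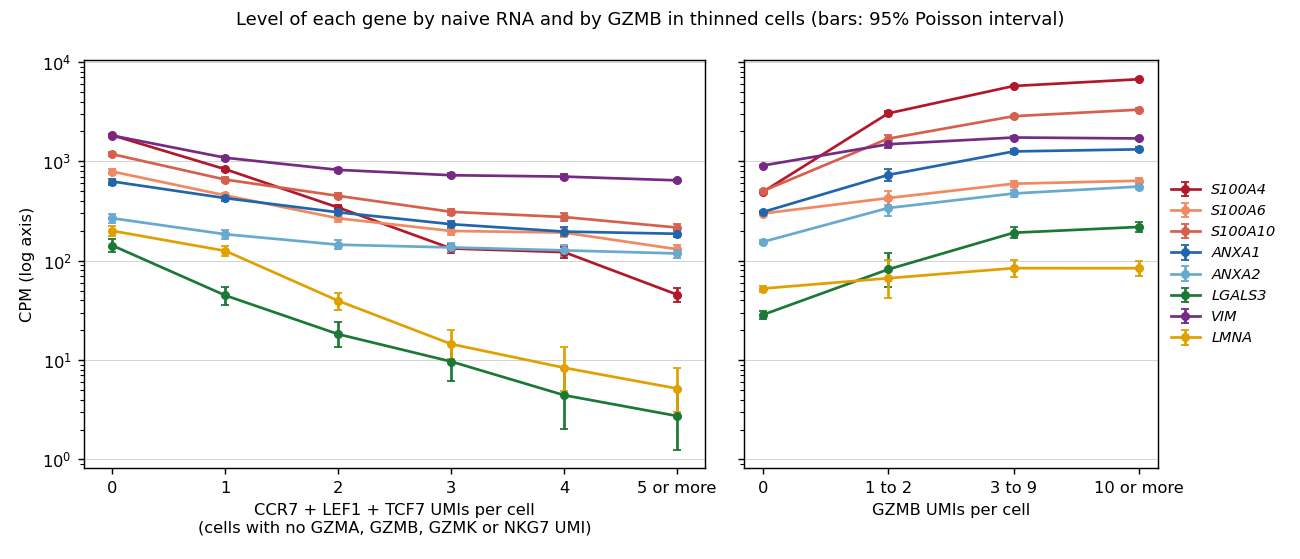
Level of each gene in CPM (log axis) in cells thinned to 2200 UMIs, by the summed UMIs of *CCR7*, *LEF1* and *TCF7* in cells without cytotoxic UMIs (left) and by *GZMB* UMIs (right), with 95% Poisson intervals. *S100A4* runs from 1830 down to 45.6 CPM along the left axis and from 492 up to 6713 CPM along the right, while *LMNA* lies between 52.4 and 84.2 CPM on the right.

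The tag gates divided the same cells by surface CD4 and CD8α at 146 and 504 tag UMIs. They held 6368 CD4hiCD8lo, 1928 CD4hiCD8hi, 417 CD4loCD8hi and 117 CD4loCD8lo cells. The last were not compared, since they held 558 CPM of T-cell, 4284 CPM of B-lineage and 9549 CPM of erythroid markers. CD4hiCD8hi cells carried 8050 CPM of the 8 genes together, CD4loCD8hi cells 7055 CPM and CD4hiCD8lo cells 3727 CPM. Against CD4hiCD8lo, 5 of 8 genes were 2-fold or more higher in CD4hiCD8hi cells (*S100A4*, *S100A10*, *ANXA1*, *LGALS3* and *LMNA*, against 4.16% of all genes), and *S100A6* stood just under that line at 1.99-fold. In CD4loCD8hi cells 2 of 8 passed (*S100A4* and *S100A10*, against 5.03%).

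*S100A4* was at 1036 CPM in CD4hiCD8lo, 2891 CPM in CD4hiCD8hi and 2641 CPM in CD4loCD8hi cells. *S100A10* alone was highest in CD4loCD8hi cells (1822 CPM, 1757 to 1888), above 1642 CPM in CD4hiCD8hi and 727 CPM in CD4hiCD8lo. The other 7 genes were highest in CD4hiCD8hi. *VIM* was at 985, 1557 and 1062 CPM and *LMNA* at 50.4, 114 and 59.8 CPM in CD4hiCD8lo, CD4hiCD8hi and CD4loCD8hi cells. The tag gates differ in which RNA gates they hold, with 83.5% of naïve-gate cells in CD4hiCD8lo and 58.2% of *CCR6*+ cells in CD4hiCD8hi, so each RNA gate was also divided by tag.

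Inside the naïve gate, CD4hiCD8hi cells (717) stood above CD4hiCD8lo cells (4245) for all 8 genes. *S100A4* was at 694 CPM (666 to 723) against 153 CPM (147 to 160), a 4.53-fold ratio, *LMNA* at 71.8 against 18.1 CPM, *LGALS3* at 39.1 against 7.65 CPM, *S100A10* at 703 against 296 CPM and *ANXA1* at 459 against 223 CPM. Here 6 of 8 genes passed 2-fold against 1.91% of all genes, the exceptions being *ANXA2* (1.34-fold) and *VIM* (1.56-fold). CD4loCD8hi cells of the naïve gate (104) were near CD4hiCD8lo instead, with *S100A4* at 193 CPM (154 to 239). None of the 8 was 2-fold higher there (2.41% of all genes), and *ANXA2* was 2-fold lower at 66.5 CPM (12.4% of all genes were that low). *S100A6* stood at log2 0.79 (0.53 to 1.04) and *VIM* at -0.50 (-0.70 to -0.31) in that comparison.

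Depth and receptor RNA moved with this difference. The naïve-gate CD4hiCD8hi cells had a median of 3895 UMIs and 21.9% of them carried a receptor or *FOXP3* UMI (18.9 to 25.1), against 2953 UMIs and 297 of 4245 cells in CD4hiCD8lo. Among naïve-gate cells without such a UMI, *S100A4* stood 2.26 higher on the log2 scale (2.14 to 2.38), *LMNA* 2.10 and *S100A10* 1.14, while *ANXA2* (0.06, -0.11 to 0.24) no longer differed beyond counting error. Within the middle 50% of naïve-gate cells by UMIs, where the medians were 3114 and 3020, *S100A4* stood 2.10 higher and *S100A6* (0.90), *S100A10* (0.76) and *ANXA1* (0.86) were under 2-fold. In thinned cells *S100A4* and *LMNA* passed 2-fold, and with both restrictions together *S100A4* did (log2 1.75, 1.34 to 2.16), while *S100A10* was at 0.60. *LGALS3* had fewer than 50 UMIs in the thinned cells and in both depth-restricted sets, and *LMNA* under both restrictions, so these were not counted there.

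The naïve-gate CD4hi cells without a receptor or *FOXP3* UMI were also divided by CD8α tag into 5 groups of 889 to 912 cells. *S100A4* was at 60.2, 48.5, 92.4 and 96.7 CPM in the lower 4 groups and at 371 CPM (351 to 391) in the top group, which started at 405 tag UMIs. The top group of 908 cells includes all 560 CD4hiCD8hi cells compared above without a receptor or *FOXP3* UMI. They held 1032 of its 1328 *S100A4* UMIs, so its level largely repeats that comparison. The sum of the 8 genes went from 1391 CPM in the lowest to 2624 CPM in the top group, with 1382, 1463 and 1664 CPM between them. The median depth was between 2900 and 2922 UMIs in the lower 4 groups and 3273 UMIs in the top one, and the part of depth was not tested.

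Inside the *GZMB*+ gate the direction was the opposite for several genes. *S100A4* was highest in CD4hiCD8lo cells (6873 CPM, 6759 to 6989, 530 cells), at 5505 CPM in CD4hiCD8hi (648 cells) and at 4162 CPM in CD4loCD8hi (248 cells). *S100A10* was at 3207, 2701 and 2759 CPM, *ANXA1* at 1318, 1184 and 941 CPM, and *LGALS3* at 224, 199 and 96.7 CPM in the same order. *S100A6* (619.6, 627 and 571 CPM) and *LMNA* (87.8, 100.3 and 76.7 CPM) could not be told apart between these gates by their ratios to CD4hiCD8lo. No gene was 2-fold higher in CD4hiCD8hi (1.26% of all genes) or in CD4loCD8hi (1.3%), and *LGALS3* was 2-fold lower in CD4loCD8hi (log2 -1.21, -1.55 to -0.89, with 1.36% of all genes that low).

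Inside the cells of any receptor or *FOXP3* gate, CD4hiCD8hi cells (363) were higher than CD4hiCD8lo cells (580) for *S100A4* (2179 against 1457 CPM), *ANXA1* (692 against 461 CPM) and *S100A10* (1459 against 1134 CPM). None of the 8 genes passed 2-fold (1.1% of all genes), and *LMNA* was at 185 CPM against 186 CPM.

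**Figure D5:**
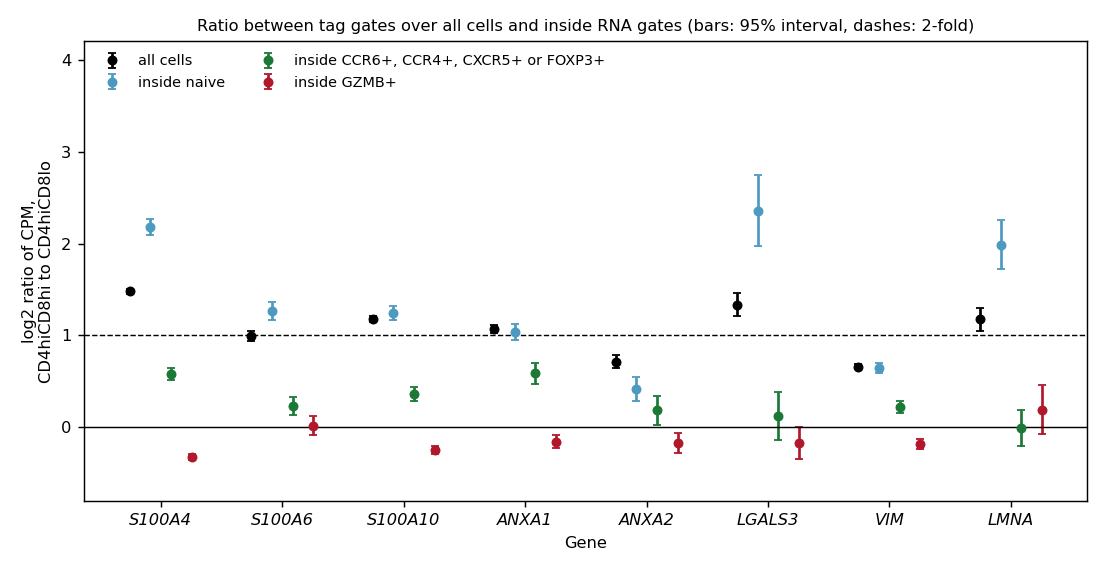
Log2 ratio of the CPM of each gene in CD4hiCD8hi to CD4hiCD8lo cells over all cells and inside 3 groups of RNA gates, with 95% intervals for counting error, a solid line at 0 and dashes at 2-fold. For *S100A4* the ratio is 1.48 over all cells, 2.18 inside the naïve gate, 0.58 inside the receptor or *FOXP3* gates and -0.32 inside the *GZMB*+ gate.

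Related genes from fixed lists were counted for *CCR6*+ and *GZMB*+ against naïve cells, where 8.18% and 13% of all genes were 2-fold higher and 5.59% and 7.82% 2-fold lower. Most other S100 genes were barely detected, and 1 of 13 with a row reached 50 UMIs in the *CCR6*+ comparison (*S100PBP*, which encodes an S100P-binding protein, at 11.5 CPM in both gates). In the *GZMB*+ comparison 4 did and 3 were 2-fold higher, but *S100A8* and *S100A9*, the subunits of the myeloid protein calprotectin, lay in 4 and 3 cells of that gate (169 and 93 UMIs), and without every cell that held either, *S100A4* was at 5748 CPM and *S100A6* at 589 CPM. *S100A3*, the gene next to *S100A4* in the RefSeq annotation of the T2T-MFA8v1.1 assembly, was at 1.79 CPM in naïve, 12.1 CPM in *CCR6*+ and 8.82 CPM in *GZMB*+ cells. Of the other annexins 4 were tested, and *ANXA6* was at 487 CPM in *GZMB*+ cells against 173 CPM in naïve, and just under 2-fold in *CCR6*+ (log2 0.98), whereas *ANXA11* was slightly lower in *GZMB*+ (-0.11) and *CCR6*+ (-0.23). *ANXA5* was at 0.86 in *CCR6*+ and 0.72 in *GZMB*+ cells. *LGALS8*, another galectin, and *LGALS3BP*, whose protein binds galectin-3, were under 2-fold in both.

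The lamin and nuclear envelope list held few genes past 2-fold. Of its 13 tested genes only *SYNE2*, a nesprin that links the nucleus to the cytoskeleton, was 2-fold higher in *CCR6*+ cells (61.4 against 13.8 CPM, log2 2.15), with a list median of 0.26. In *GZMB*+ cells *LMNB2* (log2 1.29) and *SYNE1* (1.07), another nesprin, passed instead, and *SYNE2* was at 0.43. *LMNB1*, a B-type lamin, stood at 0.20 in *CCR6*+ (-0.26 to 0.63) and 0.80 in *GZMB*+ cells.

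Of 13 tested cytoskeleton and membrane repair genes, 4 were 2-fold higher and 1 lower in *CCR6*+ cells, and 6 higher and 2 lower in *GZMB*+ cells. *AHNAK*, a giant scaffold protein that binds the S100A10 and annexin A2 complex, was at 75.6 CPM in naïve, 632 CPM in *CCR6*+ and 819 CPM in *GZMB*+ cells. *ACTN4*, an actin crosslinker, was at 13.5, 72.9 and 141 CPM, while its relative *ACTN1* was lower in both (log2 -1.75 and -2.38). *CAPG*, an actin-capping protein, was at 602 CPM in *CCR6*+ and 63.8 CPM in *GZMB*+ cells against 254 CPM in naïve. *MYO1G* passed 2-fold in *CCR6*+ and in *GZMB*+ cells (log2 1.27 and 2.22), and *FLNA* in *GZMB*+ cells only (0.57 and 1.70).

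Of 11 tested adhesion and memory surface genes, 5 were 2-fold higher in *CCR6*+ and 6 in *GZMB*+ cells. *ITGB1*, the β1 integrin of memory T cells, was 2-fold higher in *CCR6*+ (log2 1.74) but not in *GZMB*+ cells (0.93), while *ITGB2*, the β2 integrin, was at 0.57 and 2.46. *FAS*, the CD95 death receptor that marks primate memory cells, stood at 2.10 and 2.63, and *CD58* at 1.41 and 2.32. *IL7R* was higher in *CCR6*+ (0.47) and lower in *GZMB*+ cells (-1.46). Of the 4 tested quiescence genes that did not set the naïve gate, 3 were 2-fold lower in *CCR6*+ and 4 in *GZMB*+ cells, among them *BACH2* (log2 -1.56 and -2.68) and *SATB1* (-1.30 and -2.46).

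Across the 7 cell groups the genes whose log2(CPM + 5) profile was nearest to that of the 8-gene sum, among 4871 candidates with at least 500 UMIs, were *MYL12A* (Pearson r 0.996), *PRPF31* (0.995), *CD151* (0.989), *APOL2* (0.987) and *CRYBG1* (0.986). The groups share 1 library and some cells, and r takes no account of size. *MYL12A*, a myosin regulatory light chain, went from 523 CPM in naïve to 1068 CPM in *CCR6*+ and 1203 CPM in *GZMB*+ cells, whereas *PRPF31*, a splicing factor, went only from 41.7 to 56.0 and 59.9 CPM. Among the 8 genes themselves the nearest pairs in profile were *S100A6* with *VIM* (0.988) and *S100A4* with *S100A10* (0.986), and the farthest was *ANXA1* with *LMNA* (0.615). Across single thinned cells the pair *S100A4* and *S100A10* had r 0.767 over all 8076 cells, 0.565 in the naïve, 0.553 in the receptor or *FOXP3* and 0.391 in the *GZMB*+ gates. The median over the 28 pairs was 0.361 over all cells and 0.146 inside *GZMB*+ cells, as a description of sparse counts from 1 library.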

How the data were processed

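The deposited values are whole-number UMI counts of genes and tags for each barcode, which the authors had neither normalized nor passed through their Seurat 3.1.3 filter. The submitters' processing notes name Cell Ranger 3.1.0 and STAR 2.5.1b. How reads that match near-identical copies of a gene were counted was not given in the sources used here. Genes were read by symbol. The RefSeq table is of another assembly than the files, so no coordinates are given. The genes and lists were chosen with earlier results of these data known.

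The filter removed 123 barcodes with fewer than 200 or more than 4000 genes or over 20% of UMIs from 13 mitochondrial genes. No doublet caller was run. Depth was between 2256 and 5487 UMIs for the 10th to 90th percentile of cells. Summed UMIs of a gate were divided by its gene UMIs (CPM). Intervals were exact Poisson for CPM, exact binomial on the UMI split for ratios and Clopper-Pearson for shares, and cover counting error only. Called genes had at least 50 UMIs over both gates and a 2-fold ratio, with gate genes left out. Cells were thinned once, at random with a fixed seed, to 2200 UMIs. Tag gates came from Gaussian mixtures with 2 components on log10(UMIs + 1). Genes were named if they were members, gate genes, listed genes past 2-fold in a gate (at most 6 a list) or the 5 nearest profiles. *S100PBP*, *ANXA5*, *ANXA11*, *LGALS8*, *LGALS3BP* and *LMNB1* were named after their values were seen. Of the listed genes, *S100A7*, *S100Z*, *ANXA8*, *LGALS7*, *LGALS9*, *BANF1*, *MYO1F*, *CRIP1*, *TMSB4X*, *VCL*, *ITGAL*, *KLF2*, *FCN1* and *HBA* had no symbol and were not used here, and 1 other is not reported here. The work used scikit-learn 1.9.0, scipy 1.17.1, numpy 2.4.6, matplotlib 3.10.9 and Python 3.11.15, and the functions were tested on simulated data. Other filters, thresholds, denominators and gates were tried.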

Additional observations from a re-analysis of the deposited data

Results flagged for a closer look

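In 5 of the 8 genes the difference between CD4hiCD8hi and CD4hiCD8lo cells had opposite directions inside different RNA gates, each beyond counting error. With 1 library the difference between the directions was not tested. The log2 ratio of *S100A4* was 2.18 inside the naïve gate and 0.58 inside the receptor or *FOXP3* gates, but -0.32 inside the *GZMB*+ gate. For *S100A10* the values were 1.25, 0.36 and -0.25, and for *ANXA1* 1.04, 0.59 and -0.16. For *VIM* they were 0.64, 0.22 and -0.18, and for *ANXA2* 0.42, 0.18 and -0.17. The naïve-gate ratio of *ANXA2* was 0.06 in cells without a receptor or *FOXP3* UMI, and the receptor-gate ratios of *ANXA2* and *VIM* fell below 0 with cells of 1 gate only.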

How the results depend on the processing

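Of the recomputed counts of genes past 2-fold, 158 stayed within 1.5 times the main count and 20 did not. At 1.5-fold and 3-fold the count was 8 and 2 for *CXCR5*+ (main 5), 8 and 0 for CD4hiCD8hi (5), and 4 and 0 for CD4loCD8hi against CD4hiCD8lo (2). For CD4hiCD8hi inside the naïve gate (6) it was 3 at 3-fold, 2 in thinned cells, and, in settings chosen after seeing the data, 2 in the middle 50% of cells by UMIs and 1 when these also lacked a receptor or *FOXP3* UMI. For CD4loCD8hi inside the naïve gate (0) it was 3 at 1.5-fold, 3 with cells of 1 gate only, and 1 with the top 5% of cells by UMIs left out, T cells only, a naïve gate at 5 UMIs, thinned cells, ratios shifted by the median of all genes, or means over cells. Inside the receptor gates (0) it was 1 at 1.5-fold and 1 in thinned cells. With cells of 1 gate only, the log2 ratio of *ANXA1* in *FOXP3*+ cells turned to 0.14, and inside the receptor gates *S100A6* turned to -0.12, *ANXA2* to -0.14 and *VIM* to -0.039. Inside the naïve gate *ANXA2* turned to -0.028 with both added restrictions. *LGALS3* had fewer than 50 UMIs in the thinned and middle-50% cells, and *LMNA* also with both restrictions, so fewer genes were counted there. The other causes were not tested. Of the recomputed log2 ratios 808 stayed within their interval, 408 moved outside it and 5, those named above, were counted as turned. Further ratios changed sign without being counted as turned, among them 3 of 96 with T cells only. Ratios to naïve moved most where gates were set on thinned cells, by up to 2.30 (*LMNA* in *CCR6*+ cells, to 5.72), and with cells of 1 gate only, by up to 1.91 (*LGALS3* in *FOXP3*+ cells, to 4.79). Dividing by UMIs without ribosomal protein and mitochondrial genes lowered the *GZMB*+ ratios to naïve by 0.19 and turned no direction. The median of all genes was 0.17 in the *GZMB*+ comparison and -0.20 for CD4loCD8hi inside the naïve gate. No paired analysis was possible because there was 1 animal with 1 library of each kind. Genes with few UMIs, such as *LGALS3* and *LMNA* in naïve cells, had the widest intervals.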
